A study of Mus musculus with 19 samples.

Results

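CD surface antigen genes are the mouse genes whose approved symbol is Cd followed by a number and at most one letter from a to g, and 40 of the 9834 genes measured in this series bear such a name. The rule used the name alone but was set with earlier results of these data known. Each gene was represented by the mean of its probes, 52 probes in all. CD antigens are the molecules by which antibodies sort blood cells into stages and lineages, so that Cd34 marks early progenitors, Cd68 marks macrophages, the Cd3 chains mark T cells and Cd79b marks B cells. The name says only that antibodies recognise the protein: the set holds receptors, ligands, complement inhibitors, tetraspanins (proteins that cross the membrane 4 times and gather others into patches) and short lipid-anchored peptides. When a haematopoietic progenitor matures, it characteristically lowers progenitor antigens and gains those of the lineage it enters. By textbook use the genes fell into 3 progenitor genes, 6 myeloid genes, 16 lymphoid genes and 15 genes with broad expression.

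The RNA came from FDCPmix cells, an interleukin-3-dependent mouse progenitor line able to give rise to more than one blood lineage, which the labels also call an ES cell line without explaining the term. Of the 19 2-colour arrays, 4 set treated cells with no stated time against non-treated cells, and 15 set a later time against 0 h cells, with 4 arrays each for 3 h, 7 h and 12 h and 3 for 23 h. All time groups and their 0 h reference had received tamoxifen, an oestrogen receptor ligand, whereas the agent given to the treated group is named only through the series' design. No transgene, clone or separate culture is named in the labels, so p-values measure the spread between these arrays, which may be technical, and leave out the spread of the reference cells. Replicate 2 at 23 h was not analysed here.

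A value below is the log2 ratio of an array's own RNA (treated cells, or cells at a time) to its reference, after each array was centred on its median. Base 2 and the own RNA as numerator are assumptions, because the deposited values do not state either. The own RNA was in Cy5 on replicates 1 and 2 and in Cy3 on replicates 3 and 4, and over all features arrays of opposite dye did not correlate positively within a group (mean r = -0.03, against 0.12 for arrays of the same dye). The repeated extreme value of an array was above 0 on every Cy5 array and below 0 on every Cy3 array except 7 h replicate 4. Turning the Cy3 arrays before deposit would give this pattern, but the labels do not state whether they were turned. The deposited signs were kept, and called genes are also given under the other reading, in which the sign of every Cy3 array is changed. The arrays at 7 h replicate 4 and 23 h replicate 3 were in doubt: on the former, the sign of its repeated extreme value went against its dye label, and the latter had a deposited median of 0.233 and ran against its group, which was seen only from its values. A gene was called where limma's Benjamini-Hochberg adjusted p, taken over every feature tested, was under 0.05. Because RNA was taken in bulk, fewer cells of a type and less of an RNA per cell cannot be told apart.

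The promoters of the genes called in treated cells are shown because their lineages differ, one being myeloid and one lymphoid. They are the 250 bases before the annotated start, from RefSeq on GRCm38.p6, both on the minus strand, at chr11:69666171-69666420 for Cd68 and at chr9:44980432-44980681 for Cd3g. Capitals mark the ETS family core GAGGAA at position -225 of Cd68 and the GATA motif AGATAA at position -104 of Cd3g.
Cd68: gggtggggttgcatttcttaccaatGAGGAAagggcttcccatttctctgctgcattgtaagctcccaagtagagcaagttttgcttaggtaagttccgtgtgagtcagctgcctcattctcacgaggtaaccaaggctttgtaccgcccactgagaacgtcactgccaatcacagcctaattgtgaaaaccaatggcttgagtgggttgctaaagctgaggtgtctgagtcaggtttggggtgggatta
Cd3g: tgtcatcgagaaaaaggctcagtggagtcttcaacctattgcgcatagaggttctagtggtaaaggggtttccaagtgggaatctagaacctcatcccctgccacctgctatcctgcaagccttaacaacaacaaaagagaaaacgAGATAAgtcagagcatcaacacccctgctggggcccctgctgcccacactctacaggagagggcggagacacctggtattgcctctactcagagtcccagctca
Each motif was searched on both strands, and the matches do not overlap in these windows. GAGGAA stood in 12 of the 27 CD genes with a promoter in the table and in 23.3% of 32851 promoters. AGATAA stood in 4 of the 27 and in 9.99% of promoters, and the RUNX motif TGTGGT in 5 of the 27 and in 14.0%. The palindromic oestrogen response element was in none of the 27 and in 0.0639% of promoters. A CD gene counted if any of its promoters held the motif, whereas the percentages count single promoters, so these shares cannot be compared. Such matches describe the letters only. By RefSeq gene order Cd3g lies beside Cd3d, and Cd59a beside Cd59b.

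The map of all 40 genes on the 19 arrays shows that most values were small and that the treated arrays were the most uneven. The median SD of a CD gene between arrays of a group was 0.35 in treated cells, 0.14 at 3 h, 0.20 at 7 h, 0.17 at 12 h and 0.21 at 23 h. Over all features it was 0.29 in treated cells and 0.15 to 0.16 at the times, so apart from 3 h the CD genes were somewhat more variable than the average feature. Each SE below rests on a residual variance per gene that all arrays share, not on the arrays of its group alone. For a gene that varied more in treated cells, the SE there is too small and that at the times too large. All 40 genes had enough values to be tested in every comparison, and 34 of them had a value on all 19 arrays.

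**Figure D1:**
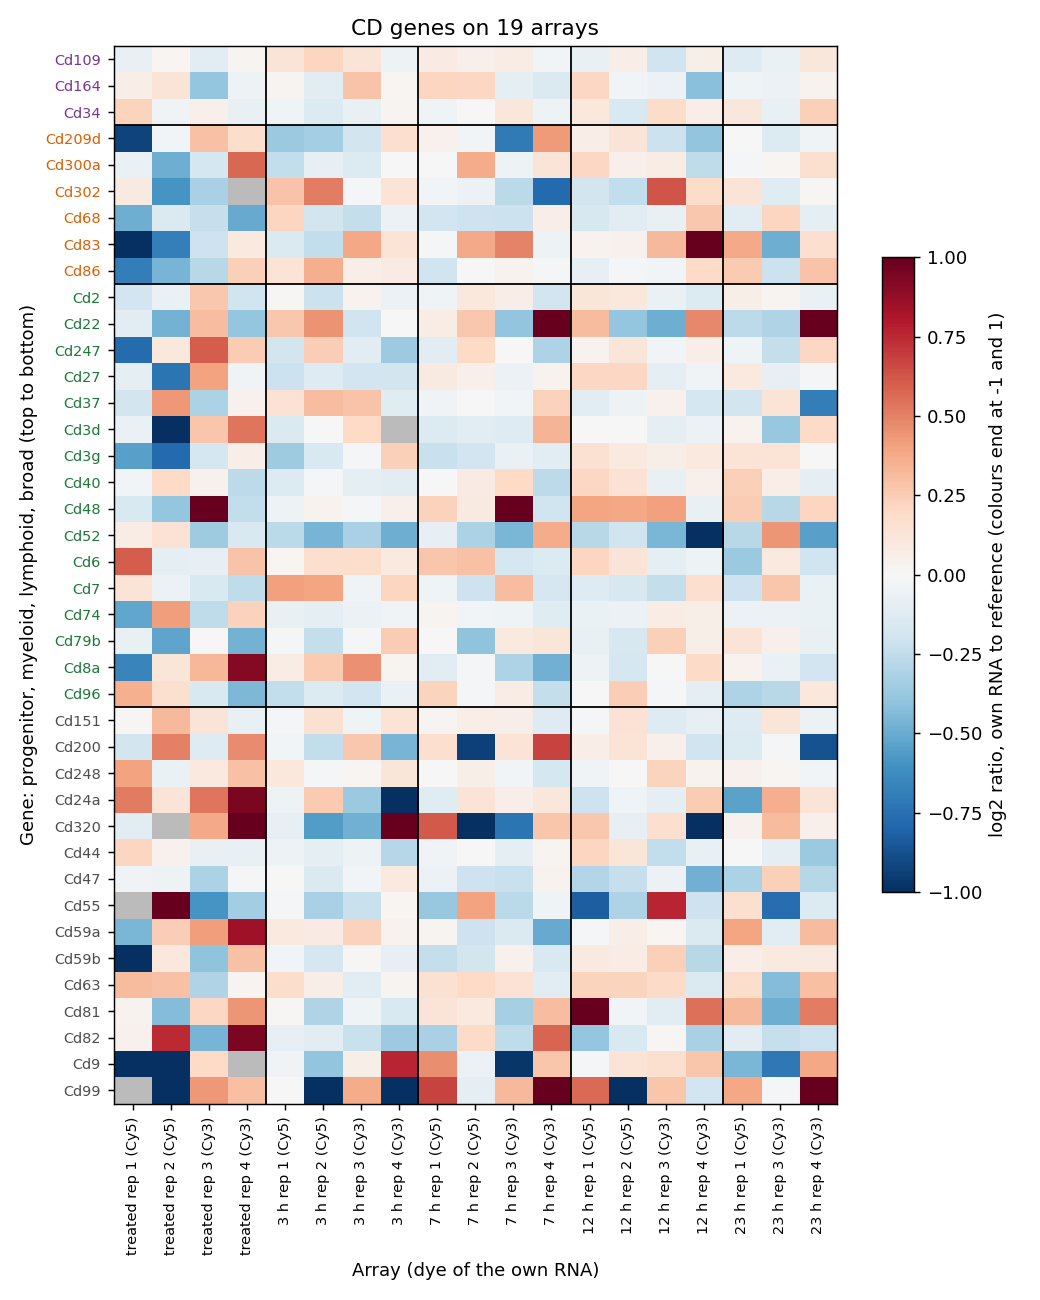
Log2 ratio of own RNA to reference for 40 CD genes (vertical axis, grouped as progenitor, myeloid, lymphoid and broad) on 19 arrays (horizontal axis, with the dye of the own RNA); grey cells have no value and colours end at -1 and 1. Deep colours are spread over many genes on the treated arrays and stand in single cells of genes such as Cd99, Cd320, Cd24a and Cd81 at the times, and the Cd52 line is blue on nearly all time arrays.

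Treated cells differed from non-treated cells in 2 CD genes: Cd68, a lysosomal glycoprotein of macrophages, and Cd3g, the gamma chain of the T cell receptor complex, both fell. That is 2 of 40 (5%), against 4.76% of all 15915 features tested, so the set as a whole was called about as often as any other feature. Both were among the falls, which made up 2.38% of features, and no CD gene was among the rises, which made up 2.39%. At an unadjusted limma p under 0.05 there were 8 CD genes (20%), against 22% of features. The median CD gene stood at -0.03, with 16 genes above 0 and 24 below, and the median over all features was 0.01.

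Cd68 read -0.49, -0.14, -0.23 and -0.50 on treated replicates 1 to 4. All 4 arrays were below 0, which held for 7.63% of features and for 3 CD genes, the others being Cd47 and Cd79b. The fitted value was -0.34 (SE 0.09, n = 4, limma adjusted p = 0.0494). Cd68 spread about as much in treated cells (SD 0.18) as at the times (SD 0.13 to 0.20). Turning the Cy3 arrays gave 0.02 (adjusted p = 0.92), because the Cy3 arrays then stood above 0, and the call was also lost without replicate 1 (-0.30, adjusted p = 0.122), replicate 3 (-0.37, 0.0576) or replicate 4 (-0.27, 0.144).

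Cd3g read -0.55, -0.78, -0.18 and 0.07. The Cy5 arrays were clearly low, 1 Cy3 array was slightly low and the other lay just above 0. The fitted value was -0.36 (SE 0.09, n = 4, limma adjusted p = 0.0378). The SE of Cd3g was the same at 3 h, 7 h and 12 h. Its SD between arrays was 0.37 in treated cells, but 0.25 at 3 h, 0.08 at 7 h and 0.04 at 12 h. The SE of Cd3g in treated cells is thus smaller than the spread of these 4 arrays alone would give. Turning the Cy3 arrays gave -0.30 (adjusted p = 0.103). It missed the threshold without replicate 1 (-0.33, adjusted p = 0.0861) or replicate 2 (-0.25, 0.112).

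Neither call held when the arrays were put on a common scale. With arrays scaled to the same spread, Cd68 and Cd3g were at -0.21 each (limma adjusted p = 0.533 and 0.431), and quantile normalization gave -0.23 (0.669) and -0.18 (0.695). With array weights they were at -0.35 (0.758) and -0.34 (0.717). Fitted on the treated arrays alone, with the spread of those arrays only, Cd68 and Cd3g each had a limma adjusted p of 0.912.

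**Figure D2:**
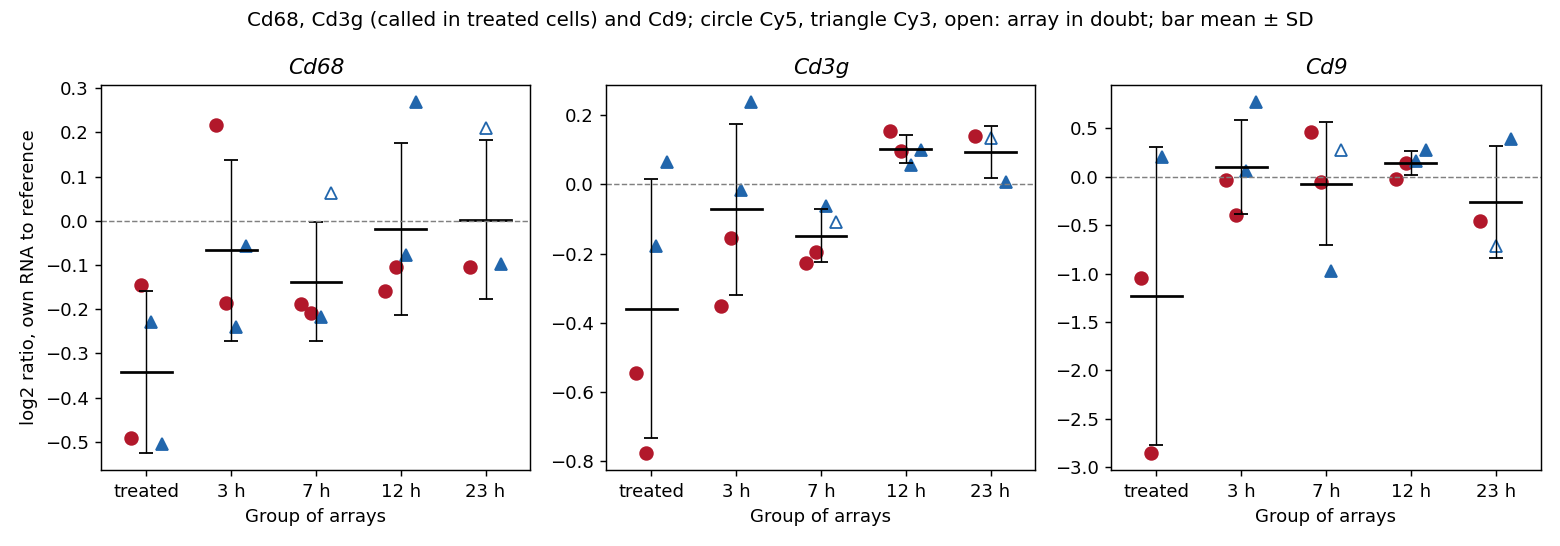
Log2 ratio of own RNA to reference (vertical axis) of Cd68, Cd3g and Cd9 in the 5 groups of arrays (horizontal axis); circles have the own RNA in Cy5, triangles in Cy3, open symbols are the arrays in doubt, and bars give the mean and SD. The Cd68 values of treated cells all lie below 0, those of Cd3g and Cd9 lie lowest on the Cy5 arrays, and over 3 to 23 h the values of each gene lie on both sides of 0.

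The 3 progenitor antigens had small values. Cd34, the sialomucin by which early progenitors are sorted, was at 0.04 (SE 0.07, n = 4), with 0.22, -0.03, 0.05 and -0.08 on the arrays. Cd164, the other sialomucin, which aids progenitor adhesion, was at -0.06, and the lipid-anchored protease inhibitor relative Cd109 was at -0.04. None passed the test, their arrays lay on both sides of 0, and under the other reading they stood at 0.05, 0.16 and 0.01.

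The 6 myeloid antigens were all fitted below 0, with a median of -0.29, and 1 of them, Cd68, fell. Cd83, a maturation marker of dendritic cells, read -1.16, -0.69, -0.20 and 0.10, for a fit of -0.49 (SE 0.19, n = 4, limma adjusted p = 0.142). Cd86, a costimulatory ligand for T cells, read -0.69, -0.47, -0.28 and 0.24, for a fit of -0.30 (SE 0.12, n = 4, adjusted p = 0.143). In both genes the Cy5 arrays were the lowest and replicate 4 lay above 0. The C-type lectin receptor Cd302 was at -0.29 (adjusted p = 0.368), the lectin Cd209d at -0.12 (0.742) and the inhibitory receptor Cd300a at -0.04 (0.899). Under the other reading 5 of the 6 remained below 0, with a median of -0.26 and none called. Replicate 4 was the exception among the arrays: the median of the 6 genes was -0.59, -0.48 and -0.22 on replicates 1 to 3 and 0.17 on replicate 4.

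The list of monocyte and macrophage markers, of which 4 of 10 were measured in treated cells and Cd68 is one, had 3 below 0 and a median of -0.34. Its median ranged from -0.38 to -0.14 over the treated arrays. The neutrophil markers had 8 of 10 below 0 and a median of -0.16, ranging from -0.32 to 0.04 over the arrays. The part of either in the myeloid CD values was not tested, and since a log ratio gives no level, it was not possible to say which defining markers the cells expressed.

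Among the 16 lymphoid antigens 12 were fitted below 0 and 4 above, with a median of -0.04, and 1, Cd3g, fell. Cd79b, a signalling chain of the B cell receptor, read -0.08, -0.53, 0.00 and -0.48, for a fit of -0.27 (SE 0.10, n = 4, limma adjusted p = 0.122). Replicate 3 lay just below 0 and the other arrays further below. Cd3d, the delta chain of the T cell receptor complex and the gene next to Cd3g, read -0.07, -2.90, 0.28 and 0.54, for a fit of -0.54 (SE 0.35, n = 4, adjusted p = 0.398). Its low value rested on replicate 2 alone, unlike that of Cd3g. Of the other T cell chains, the zeta chain Cd247 stood at 0.05 and the co-receptor Cd8a at 0.18, but their probes did not agree: those of Cd247 averaged 0.56, 0.03, 0.01 and -0.26, and those of Cd8a 0.94, -0.01 and -0.40. Cd6, a T cell costimulatory receptor, was the highest of the lymphoid genes at 0.18 (adjusted p = 0.366). With the Cy3 arrays turned, 10 of the 16 lay below 0, with a median of -0.06 and none called.

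The 15 broad antigens lay mostly above 0, 11 against 4, with a median of 0.10 and none called. Under the other reading this lean was lost, with 6 above 0 and 9 below, a median of -0.01, 1 rise and 1 fall. Cd24a, a short lipid-anchored sialoprotein of immature cells, read 0.52, 0.13, 0.54 and 0.94. It was the only CD gene above 0 on all 4 arrays, which held for 6.79% of features, and both of its probes lay above 0 (0.70 and 0.36). Its fit of 0.53 (SE 0.19, n = 4, limma adjusted p = 0.119) became -0.21 under the other reading.

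Cd9, a tetraspanin of megakaryocytes and many other cells, read -1.04, -2.85 and 0.20, with no value on replicate 4. Both Cy5 arrays were far below 0 and the Cy3 array was above it, which gave the lowest fit of any CD gene and also a wide error, -1.16 (SE 0.40, n = 3, limma adjusted p = 0.105). Under the other reading Cd9 passed, at -1.32 (adjusted p = 0.0386). So did Cd55, a complement inhibitor, which read 2.15, -0.59 and -0.35 on replicates 2 to 4: it was at 1.04 (adjusted p = 0.0373) there and at 0.46 (0.531) with the deposited signs. That reading called 8.25% of features and again 2 of the 40 CD genes, so the count was unchanged while the genes were different.

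The other broad genes stayed nearer 0 or varied more. Among the tetraspanins, Cd63 of lysosomes and granules was at 0.08, Cd81 at 0.06, Cd151 at 0.10 and Cd82 at 0.32, with adjusted p-values from 0.332 to 0.893. The complement inhibitors Cd59a and Cd59b, neighbours in the genome and close paralogs, stood on opposite sides, at 0.26 (adjusted p = 0.309) and -0.36 (0.258). Whether a probe of one also binds the other was not tested. Cd59b read -1.41 on replicate 1 and between -0.41 and 0.29 on the others. Cd248, a stromal lectin-like glycoprotein, was at 0.18 (SE 0.07, n = 4, adjusted p = 0.153). Cd47, the signal that holds off phagocytes, was at -0.11, and the hyaluronan receptor Cd44 at 0.03. Cd200 was at 0.17, but its probes averaged -0.26 and 0.59.

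**Figure D3:**
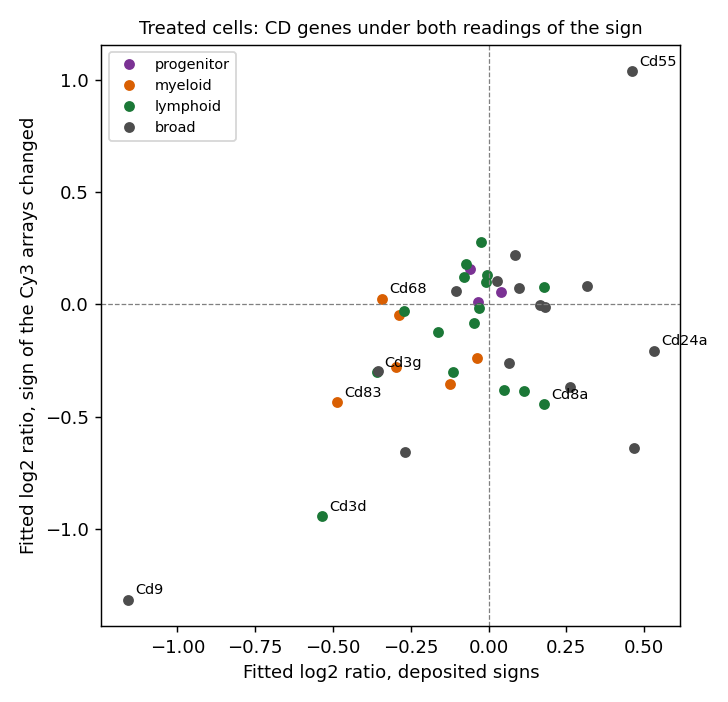
Fitted log2 ratio of 40 CD genes in treated cells with the deposited signs (horizontal axis) and with the sign of every Cy3 array changed (vertical axis), coloured by lineage. Of the 40 genes, 18 stand on opposite sides of 0, among them Cd68 and Cd24a, whereas Cd3g, Cd83, Cd3d and Cd9 are below 0 on both axes.

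CD antigens that go by other gene symbols were followed for comparison, and 54 of 102 listed were measured. In treated cells 3 of them rose and 1 fell, against 2.39% and 2.38% of all features. Dpp4, the peptidase CD26, was at 0.70 (SE 0.11, n = 4, limma adjusted p = 0.00561), the platelet glycoprotein Gp5 at 0.93 (SE 0.19, n = 4, 0.0166), and the endothelial and progenitor antigen Eng at 0.42 (SE 0.11, n = 4, 0.0378). The insulin-like growth factor receptor Igf2r was at -0.29 (SE 0.08, n = 4, 0.0468). Each of these 4 genes lay on the same side of 0 on all 4 arrays. With the Cy3 arrays turned, Dpp4 and Gp5 were at -0.15 each, Eng at -0.16 and Igf2r at -0.21, none of them called. Of the antigens used to define blood cells, the integrin Itga2b was at -0.19 (adjusted p = 0.13) and the leukocyte phosphatase Ptprc at -0.03 (0.90). The 54 genes leaned below 0, by 38 to 16, with a median of -0.07.

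After tamoxifen, no CD gene passed the test at any single time, and the values kept close to those at 0 h. The median CD gene was at -0.04 at 3 h, -0.01 at 7 h, 0.00 at 12 h and 0.00 at 23 h. limma called 0 of 16108 features at 3 h (0%), 0 of 16087 at 7 h (0%), 3 of 16089 at 12 h (0.0186%, of which 0.0124% higher and 0.00622% lower) and 0 of 16116 at 23 h (0%), so a count of 0 CD genes was not particular to them. At an unadjusted p under 0.05 there were 2 CD genes at 3 h against 5.37% of features, 0 at 7 h against 3.37%, 3 at 12 h against 3.51% and 0 at 23 h against 1.7%. Turning the Cy3 arrays also left 0 CD genes called at each time. The 4 times were each set against the 0 h reference, so their values are given side by side and not as independent support of each other.

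**Figure D4:**
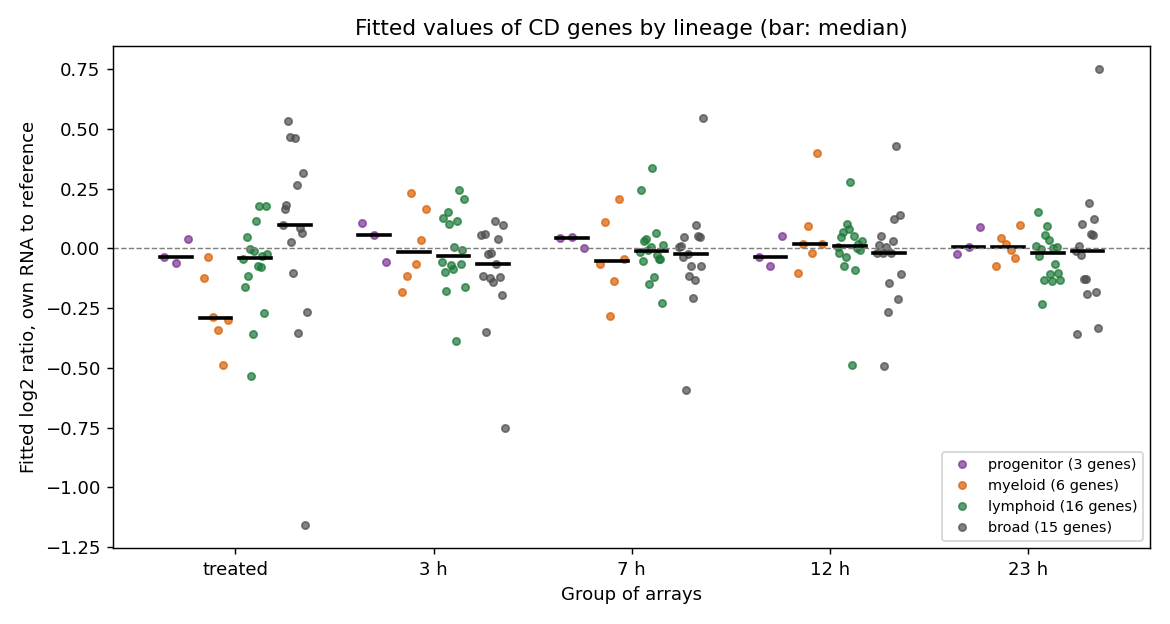
Fitted log2 ratio of each CD gene (vertical axis) in treated cells and at 3, 7, 12 and 23 h (horizontal axis), by lineage, with a bar at the median of each lineage. The myeloid genes all lie below 0 in treated cells, with a median of -0.29, while all lineage medians at the 4 times lie between -0.07 and 0.05.

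At 3 h the lowest p-values belonged to 2 lymphoid genes. Cd52, a short lipid-anchored peptide of lymphocytes and other leukocytes, read -0.27, -0.46, -0.32 and -0.49, all below 0, for a fit of -0.39 (SE 0.16, n = 4, limma adjusted p = 0.887). The SD of Cd52 was 0.10 at 3 h, against 0.36 at 7 h and 0.37 at 12 h. The shared SE is thus larger than the 3 h arrays alone would give. Cd7, an immunoglobulin-like protein of early T cells, read 0.41, 0.39, -0.04 and 0.22, with 1 Cy3 array at about 0, for a fit of 0.25 (SE 0.11, n = 4, adjusted p = 0.887). With the Cy3 arrays turned, Cd52 was at 0.02 and Cd7 at 0.16. All 4 arrays lay below 0 for 8 CD genes (20%), against 10.5% of features, and above 0 for 4 (10%), against 11.1%. The 8 were Cd52, the T and B cell costimulatory receptor Cd27 (-0.18), Cd96 (-0.16), Cd40, a TNF receptor family member of B cells (-0.09), the invariant chain Cd74 (-0.06), Cd300a (-0.12), Cd82 (-0.20) and Cd44 (-0.12). The 4 were Cd6, Cd8a, Cd59a (0.11) and Cd86 (0.16). These 12 were named after their values were seen. For 2 of them the probes did not agree at 3 h: those of Cd74 averaged 0.16, -0.13 and -0.22, and those of Cd8a 0.56, -0.01 and 0.07.

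At 7 h the spread over arrays was wider. Cd302 read -0.03, -0.06, -0.27 and -0.78, for a fit of -0.28 (SE 0.15, n = 4, limma adjusted p = 1), and its Cy3 arrays were lower than its Cy5 arrays. The lowest value was that of replicate 4, an array in doubt. Without both arrays in doubt Cd302 was at -0.12, and with the Cy3 arrays turned it was at 0.24. Cd8a (-0.23) and Cd3g (-0.15) were also below 0 on all 4 arrays, which made 3 CD genes (7.5%) against 6.92% of features. No CD gene was above 0 on all 4, against 5.82% of features. Both counts include replicate 4, whose sign is in doubt. Cd48, a lipid-anchored ligand of lymphocyte receptors, stood at 0.33 through 1 array at 1.22.

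At 12 h the lowest p-values belonged to Cd52, Cd47 and Cd83. Cd52 read -0.27, -0.20, -0.46 and -1.02, for a fit of -0.49 (SE 0.16, n = 4, limma adjusted p = 1). Cd47 read -0.29, -0.23, -0.06 and -0.48, for a fit of -0.26 (SE 0.09, n = 4, adjusted p = 1). These were the 2 CD genes below 0 on all 4 arrays (5%), against 7.02% of features. Cd83 and Cd3g were above 0 on all 4 (5%), against 7.56% of features: Cd83 read 0.04, 0.04, 0.32 and 1.19, for a fit of 0.40 (adjusted p = 1), and Cd3g was at 0.10, opposite in sign to its value in treated cells. With the Cy3 arrays turned, Cd52 was at 0.25, Cd47 at 0.002, Cd83 at -0.36 and Cd3g at 0.02. Cd81, a tetraspanin partner of B cell receptors, was at 0.43, with 1.30 and 0.55 on replicates 1 and 4 and values near 0 on the others. The neutrophil markers stood at a median of -0.36 at 12 h, from -0.45 to -0.25 over the arrays, and their part in the Cd52 and Cd47 values was not tested.

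At 23 h, with 3 arrays, the values spread widely around 0. Cd44 was at -0.13 (SE 0.08, n = 3, limma adjusted p = 1), the B cell tetraspanin Cd37 at -0.23, Cd200 at -0.36 and Cd9 at -0.33. The probes of Cd200 averaged -0.02 and -0.98, the latter from 2 arrays. Without both arrays in doubt (n = 2) Cd9 was at -0.04, whereas Cd44 was at -0.19, Cd37 at -0.43 and Cd200 at -0.51. Below 0 on all 3 arrays were 4 CD genes (10%), against 9.49% of features, and above 0 were 3 (7.5%), against 10.1%. Replicate 3 lay opposite to the other arrays for Cd52, Cd47 and Cd68.

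Between 3 h and 23 h, limma called 0 of 16082 features (0%), and 1 CD gene was under an unadjusted p of 0.05, against 2.54% of features. It was Cd99, an adhesion protein that leukocytes use to cross endothelium, at 1.505 (SE 0.61, adjusted p = 1). Cd99 read -0.01, -1.93, 0.37 and -1.45 at 3 h and 0.39, -0.01 and 2.19 at 23 h. The arrays of the 2 times overlapped, and the difference rested on 2 low arrays and 1 high one. Cd37 was at -0.39 in this comparison, Cd34 at 0.15, Cd68 at 0.06 and Cd24a at 0.32. The F test over the 4 times called 0 of 16021 features (0%), with 0 CD genes and 2.37% of features under an unadjusted p of 0.05.

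Over the time course as a whole, Cd52 was the lowest CD gene. A contrast of the mean of the 4 times against 0 h, added after the values were seen, put it at -0.28 (SE 0.08, 15 arrays, limma adjusted p = 0.929), and called 0 of 16021 features (0%), with 2 CD genes and 4.19% of features under an unadjusted p of 0.05. Besides the values above, Cd52 read -0.08, -0.32, -0.46 and 0.37 at 7 h and -0.28, 0.44 and -0.54 at 23 h. It was thus below 0 on 13 of 15 arrays, and the 2 arrays above 0 were those in doubt, 7 h replicate 4 and 23 h replicate 3. On the 13 other arrays Cd52 was the only CD gene that kept to one side, a pattern shown by 0.554% of 15695 features below 0 and by 0.223% above. It was not alone in this beyond the 40 genes: 4 of the 54 CD antigens with other symbols were also below 0 on all 13. On the arrays in doubt, the metalloprotease Adam8 read 0.77 and 0.41, and Bst2 read 0.13 and 0.45. Itgal read 0.35 and 0.006 there, and Bsg read 0.32 and -0.18, so Bsg stayed below 0 on 23 h replicate 3. These were named after their values were seen. The median of the neutrophil markers was likewise below 0 on all 13 arrays, from -0.82 to -0.09, and at 0.39 and 0.73 on those in doubt, with 7 of 10 markers under an unadjusted limma p of 0.05 for the mean of the times and none called. Its part in the Cd52 values was not tested.

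Without both arrays in doubt, Cd52 was at -0.40 (SE 0.05, 13 arrays, limma adjusted p = 0.00104), and 1 of 40 CD genes (2.5%) and 1.2% of features were called. With their signs turned instead it was at -0.39 (adjusted p = 0.000109), with 2 of 40 CD genes and 1.95% of features called. Since 23 h replicate 3 was singled out by its values, those p-values are smaller than an unselected choice of arrays would give. Leaving out 7 h replicate 4 alone gave -0.32 (adjusted p = 0.125) and leaving out 23 h replicate 3 alone gave -0.35 (0.0819). With the Cy3 arrays turned, Cd52 was at 0.01 (adjusted p = 0.999), or 0.13 (0.783) without the arrays in doubt. In treated cells it read 0.07, 0.14, -0.35 and -0.16, on both sides of 0.

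Cd47 was below 0 on 11 of 15 arrays, with a mean over the times of -0.13 (SE 0.05, limma adjusted p = 1). It stood at -0.06, -0.21, -0.22 and 0.03 at 7 h and at -0.31, 0.24 and -0.28 at 23 h, so that its high arrays at these times were again those in doubt. Without them it was at -0.19 (SE 0.04, adjusted p = 0.055), and with their signs turned at -0.17 (adjusted p = 0.0193). Turning the Cy3 arrays instead gave -0.05 (adjusted p = 0.921), or -0.0076 (0.999) without the arrays in doubt. Cd44 was at -0.07 (SE 0.03, adjusted p = 1), with 11 arrays below 0, and stood at 0.09 under the other reading. Cd63 was the reverse, above 0 on 11 of 15 arrays, at 0.08 (SE 0.05, adjusted p = 1). Cd82, a tetraspanin of leukocytes, and Cd74 were each below 0 on 12 of 15 arrays, with means over the times of -0.14 and -0.04. Under the other reading they stood at 0.01 and -0.01. How many of all features reached 11 or 12 of 15 arrays was not counted, so these counts only describe the arrays.

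**Figure D5:**
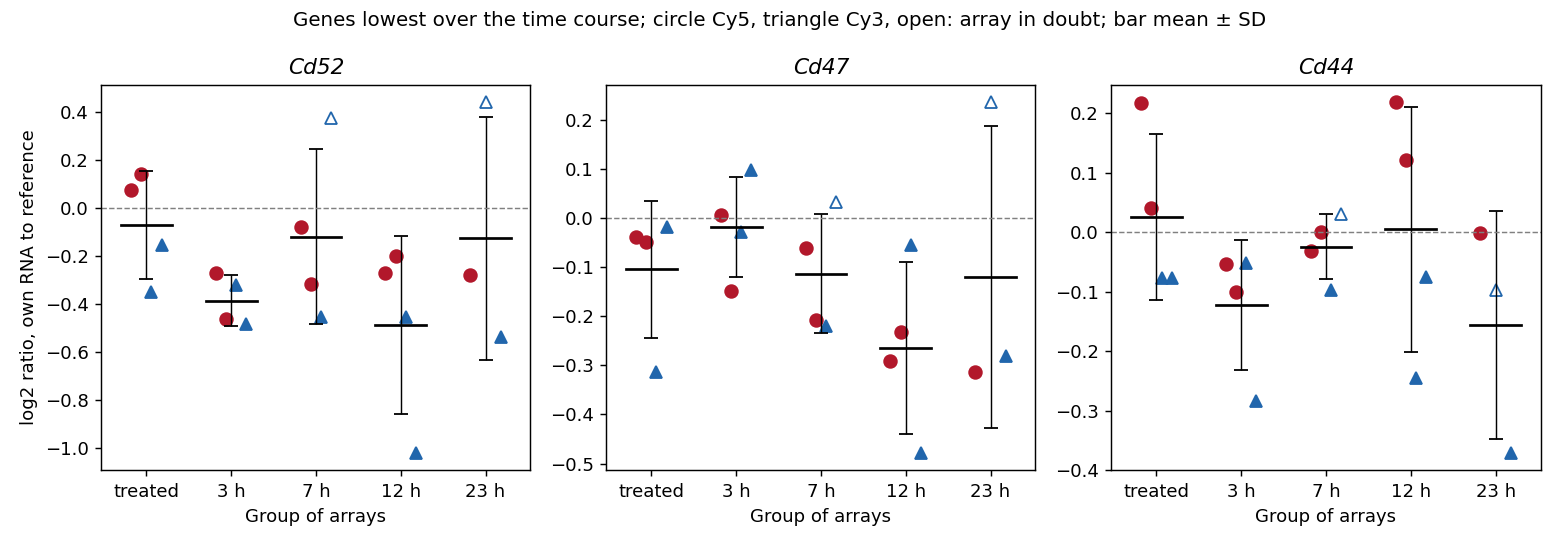
Log2 ratio of own RNA to reference (vertical axis) of Cd52, Cd47 and Cd44 in the 5 groups of arrays (horizontal axis); circles have the own RNA in Cy5, triangles in Cy3, open symbols are the arrays in doubt, and bars give the mean and SD. Cd52 lies below 0 on 13 of 15 time arrays and Cd47 on 11, and for Cd52 the open symbols at 7 h and 23 h are the exceptions.

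The defining antigens of the lineages showed no called difference over these 23 h. Cd34 was at -0.06, 0.00, 0.05 and 0.09 at 3, 7, 12 and 23 h, and its mean over the times was 0.02 (SE 0.04, limma adjusted p = 1). Cd164 was at 0.05, 0.05, -0.07 and 0.00, and Cd109 had a mean of 0.02. Among the myeloid genes, Cd68 was at -0.07, -0.14, -0.02 and -0.01, with 11 of 15 arrays below 0 and a mean of -0.06 (SE 0.05), and Cd83 had a mean of 0.15 (SE 0.10). For the lymphoid chains, Cd3g had a mean of -0.02 (SE 0.05) and Cd79b of -0.01 (SE 0.05). A difference of the size of the errors given would not have been detectable with these arrays. Among the CD antigens with other symbols, none of the 54 was called at a time. Ptprc was at 0.12 (SE 0.04) and Itga2b at -0.03 (SE 0.04) as means over the times.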

How the data were processed

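Total RNA of FDCPmix cells was labelled with Cy3 or Cy5 and hybridised to 19 2-colour arrays, per the labels. For every spot the authors deposited a log ratio, read as log2, whose base, numerator and normalization the sources used here do not give. Each array was centred on its median, and a repeated extreme value on 8 to 29 spots of each array was set to missing. Probes of a gene were averaged (16148 features), with 40 of 40 CD genes matched to RefSeq. A feature was tested with values on at least 3 of 4 arrays, or 2 of 3 at 23 h. limma 3.58.1 in R 4.3.3 fitted all 19 arrays together, with group means, a dye term and Benjamini-Hochberg adjustment. The procedure was tested on simulated data.

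Genes were named where called, among the 10 smallest p-values of a comparison, highest or lowest in their lineage, or on a list of common markers. The members, lineages and lists were chosen with earlier results of these data known. No 2 arrays shared more than 0.289% of their values. Precision is limited by how few arrays each group has. Alternatives changed signs, centring, scaling, quantile normalization, extreme values, the dye term, the replicate block, array weights, arrays in the fit, coverage, probes and single arrays.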

Additional observations from a re-analysis of the deposited data

Results flagged for a closer look

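In 9 of 154 pairs of a CD gene and a group with values on all 4 arrays (5.84%), 1 array stood far from the other 3, where chance alone gives about 1 in 20 pairs. At 7 h all 4 such genes had replicate 4, an array in doubt, as the distant one: Cd37 (0.231, the others -0.04 to -0.01), Cd3d (0.34, the others -0.14 to -0.11), Cd63 (-0.11, the others 0.15 to 0.20) and Cd68 (0.064, the others -0.22 to -0.19). At 12 h replicate 4 was the distant array for Cd320 (-2.32, the others -0.08 to 0.27), Cd48 (-0.077, the others 0.38 to 0.41) and Cd63 (-0.15, the others 0.19 to 0.23). In treated cells replicate 3 was distant for Cd47 (-0.31, the others -0.05 to -0.02) and Cd48 (1.25, the others -0.39 to -0.15).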

How the results depend on the processing

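In treated cells the count of CD genes called, 2 as reported, was 0 with deposited values not centred, arrays scaled to the same spread, quantile normalization, array weights or only the treated arrays, and 1 without the dye term, without both arrays in doubt, with values required on every array, with 1 probe per gene, or with the Cy3 arrays turned and both arrays in doubt left out. With the Cy3 arrays turned, whether or not both arrays in doubt were kept, Cd68 was at 0.024, Eng at -0.16, Gp5 at -0.15 and Dpp4 at -0.15; the cause was not tested. Leaving out 1 treated array gave 2 to 3 CD genes, but not the same genes. Without replicate 1 neither Cd68 nor Cd3g was called. Without replicate 2 only Cd68 of this pair was called, and without replicate 3 or 4 only Cd3g. Among the calls gained were Cd9 without replicate 3 and Cd86 without replicate 4. With the replicate number as a block the count was 0 (Cd3g limma adjusted p = 0.0568, Cd68 0.0741). Deviations from the group means had a mean r of 0.03 between same-numbered arrays. It was 0.04 for other numbers of the same dye and -0.04 for the other dye. Correlations this weak cannot tell whether same-numbered arrays shared a culture or RNA. Over the times the count stayed 0, also with any 1 array left out, except that with the mean of the times it was 1 without both arrays in doubt and 2 with their signs turned, and at 12 h it was 1 with their signs turned. All other alternatives kept each count within 1.5 times.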
